A study of Rattus norvegicus with 12 samples.

Results

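The features described here are the 100 that separated lesioned from unlesioned rats most clearly by lying lower, out of 14985 tested features and 16534 in the deposited table. They were chosen on the measured levels themselves. For each feature, the highest of the 6 lesioned rats was subtracted from the lowest of the 6 unlesioned rats on the log2(CPM + 0.5) scale, where CPM is a feature's reads after each library is scaled to one common total of counted reads. This difference is called the gap, and the 100 features with the largest gap are the members. Their lower level in lesioned rats is therefore how they were found, and it is given below as a description.

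Motor cortex was profiled in 4 groups of 3 rats (Rattus norvegicus): control rats, labelled ctrl; rats given 6-OHDA to model Parkinson's disease, labelled PD; stimulated control rats, labelled stim on ctrl; and stimulated PD rats, labelled stim on PD. The term lesioned covers PD and stimulated PD rats, and unlesioned covers both control groups. Stimulation was wireless, through an array of graphene electrodes placed in the primary motor cortex, with daily sessions of 1 hour at 130 Hz over 2 weeks; the design text names 3 groups where the labels give 4, and does not say whether stimulated controls had this schedule. The strain, age and sex of the rats, the side and site of the toxin, and whether unstimulated rats carried an array are not stated in the labels or the design text. No genotype or transgene is named for any group.

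6-OHDA (6-hydroxydopamine) is a toxin that catecholamine neurons take up through their transporters, and it is used in rats to destroy the dopamine neurons of the midbrain. Those neurons project mainly to the striatum and more sparsely to the cortex, and the motor cortex also receives the output of the basal ganglia through the thalamus. Cortex tissue holds excitatory and inhibitory neurons, glia and vessel cells. A lower transcript level in bulk tissue can come from fewer cells of a type or from less RNA per cell, and these cannot be told apart here.

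The table gives Ensembl rat gene identifiers and does not pair them with symbols. Of 16534 identifiers, 0 were matched to a symbol in the reference tables used here. The members are therefore not named or grouped by function. The 28 lists of marker and pathway genes drawn up for them, the check of the tissue against its markers, and their promoter sequences are not analysed here. Mitochondrially encoded genes could not be left out by name for the same reason. The most abundant member averaged 387 CPM, whereas the most abundant feature in the table averaged 25655 CPM. These levels do not show whether any member is mitochondrially encoded. Members are called by their rank by gap, from 1 for the largest, and only the first pair by identifier.

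Libraries held 42905441 to 62082830 counted reads. The ranges of lesioned (45862054 to 62082830) and unlesioned libraries (42905441 to 58122292) overlapped. The 10 most abundant features of each library took 9.68% to 12.3% of its reads in lesioned and 7.64% to 8.71% in unlesioned rats, so this share was higher in every lesioned rat. PD rat 2 and stimulated control rat 3 most often held the lowest and the highest value of all 12 rats (34.7% and 25.5% of tested features). The part of the higher share of these 10 features in the members' lower CPM was not tested, and the values under other scalings are given with the scaling results.

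Both features at the head of the list lay far apart from all others on this measure. ENSRNOG00000069829 (rank 1) stood at 3.64, 4.17 and 4.49 CPM in control rats 1 to 3 and at 4.21, 4.49 and 3.27 CPM in stimulated control rats. In PD rats it stood at 0.615, 0.944 and 0.532 CPM and in stimulated PD rats at 0.502, 0.530 and 0.710 CPM. The 6 lesioned rats lay together below 1 CPM, and the lowest unlesioned rat was above 3 CPM. The mean was 4.04 ± 0.492 CPM in unlesioned and 0.639 ± 0.168 CPM in lesioned rats (SD, n = 6), a 6.33-fold lower level. Each value rests on 23 to 51 reads in lesioned and 156 to 261 reads in unlesioned libraries. Its log2 difference was -1.95 (SE 0.19) in PD against control and -2.05 (SE 0.19) in stimulated PD against stimulated control rats, so the lesion difference had nearly the same size in both pairs.

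ENSRNOG00000070062 (rank 2) stood at 3.08, 3.30 and 2.20 CPM in control and at 1.81, 2.72 and 2.86 CPM in stimulated control rats. It stood at 0.254, 0.241 and 0.387 CPM in PD and at 0.480, 0.473 and 0.258 CPM in stimulated PD rats. All lesioned rats were below 0.5 CPM, and the lowest unlesioned rat, stimulated control rat 1, was at 1.81 CPM. The means were 2.66 ± 0.560 CPM in unlesioned and 0.349 ± 0.112 CPM in lesioned rats (SD, n = 6), a 7.63-fold lower level on 12 to 25 reads per lesioned library. The log2 difference was -2.07 (SE 0.21) without and -1.70 (SE 0.21) with stimulation. These 2 members were the only features of the 14985 tested in which every lesioned rat was below 50% of the lowest unlesioned rat. The deposited table holds no value at 0, so a feature without a read in some library could not be among those tested. Tested features average at least 0.5 CPM over all rats, which rank 2 reaches only through its unlesioned rats.

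**Figure D1:**
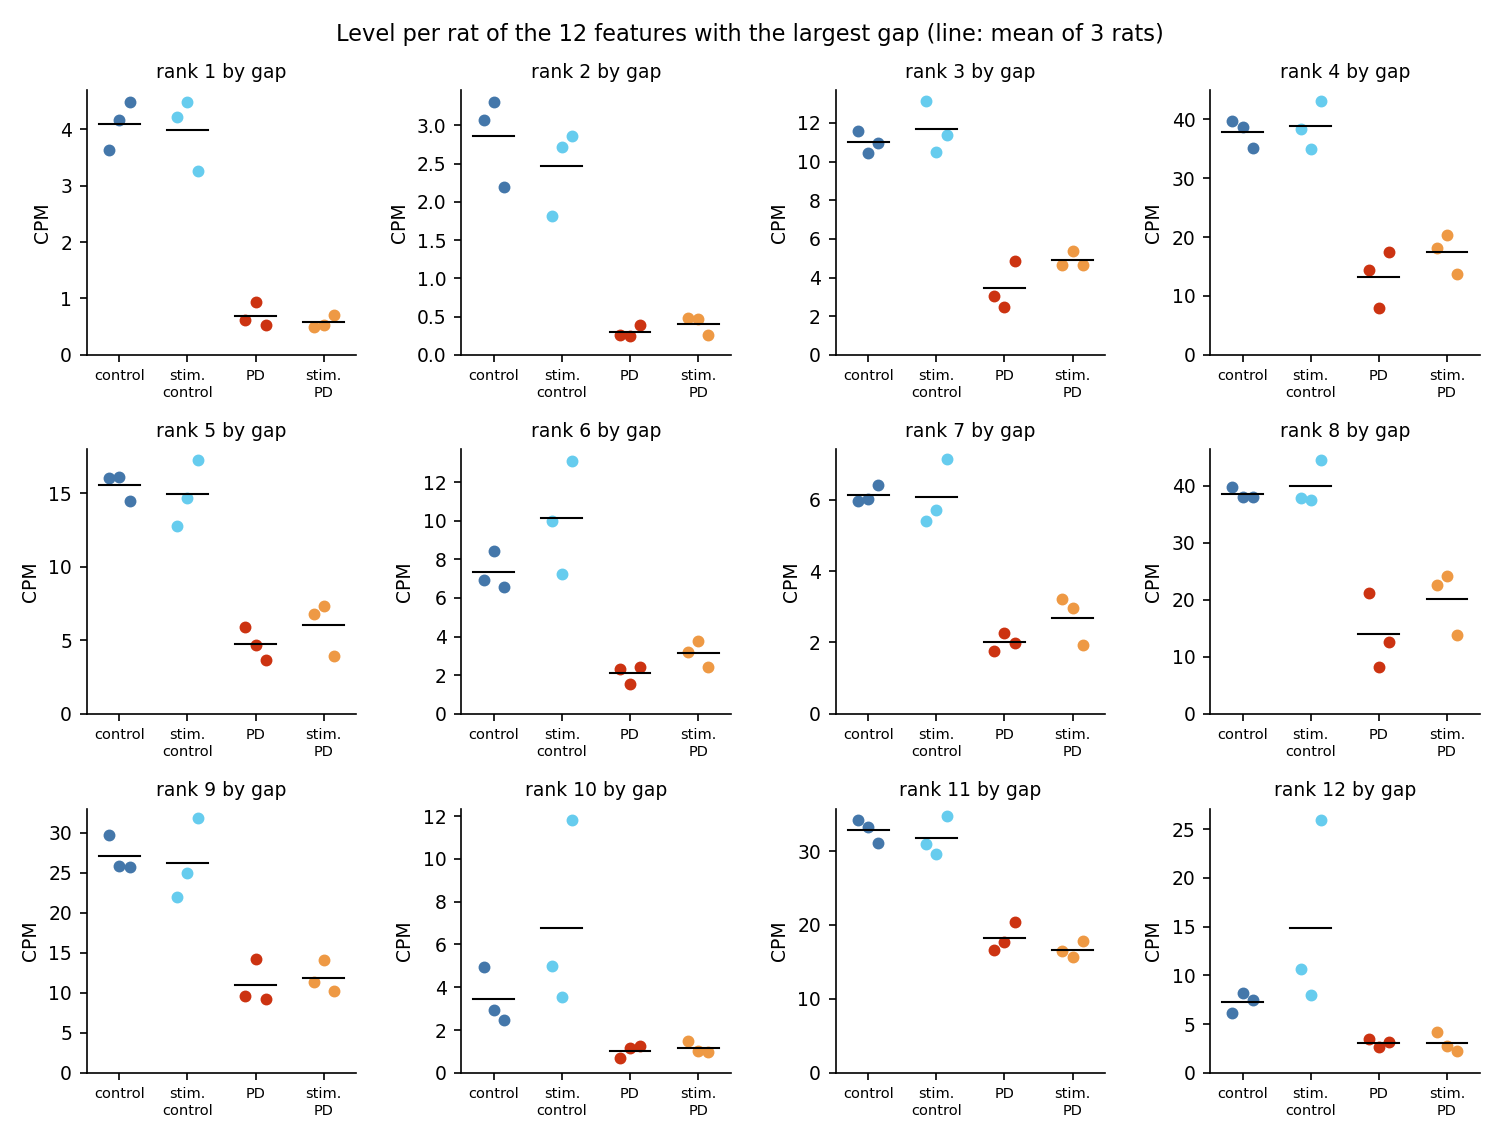
Level in CPM (vertical axes, each starting at 0) in each rat of the 4 groups for the 12 members with the largest gap; a point is 1 rat and a line the mean of 3. In rank 1 all lesioned rats lie below 1 CPM and all unlesioned rats above 3 CPM, and in ranks 10 and 12 stimulated control rat 3 stands above the other unlesioned rats.

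Ranks 3 to 9 lay on a narrower but still clear step, with gaps of 0.62 to 0.90 on the log2 scale. Rank 3 stood at 11.6, 10.5 and 11.0 CPM in control, 13.1, 10.5 and 11.4 in stimulated control, 3.05, 2.48 and 4.86 in PD and 4.62, 5.36 and 4.67 in stimulated PD rats. Rank 4 stood at 39.8, 38.7 and 35.1 CPM in control, 38.4, 35.0 and 43.1 in stimulated control, 14.4, 7.90 and 17.5 in PD and 18.2, 20.3 and 13.7 in stimulated PD rats. In both, the unlesioned rats lay close together and the lesioned rats spread more widely, with PD rat 2 the lowest. Rank 5 stood at 16.0, 16.1 and 14.5 CPM in control, 12.8, 14.7 and 17.3 in stimulated control, 5.89, 4.66 and 3.64 in PD and 6.78, 7.36 and 3.96 in stimulated PD rats. Rank 8 stood at 39.7, 37.9 and 38.0 CPM in control, 37.8, 37.5 and 44.5 in stimulated control, 21.2, 8.25 and 12.6 in PD and 22.5, 24.1 and 13.8 in stimulated PD rats. In ranks 3, 4, 5 and 8 PD and stimulated PD rats overlapped, and in rank 8 the lesioned rats spread more widely than the unlesioned rats.

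Rank 11 showed little spread on either side of the step. It stood at 34.1, 33.3 and 31.1 CPM in control, 30.9, 29.6 and 34.8 in stimulated control, 16.6, 17.7 and 20.3 in PD and 16.4, 15.6 and 17.8 in stimulated PD rats. The lesioned mean was 17.4 ± 1.65 CPM against 32.3 ± 2.06 CPM (SD, n = 6), a 1.85-fold lower level with no rat far from its own side. Its log2 differences of -0.84 (SE 0.12) without and -0.91 (SE 0.12) with stimulation were alike, and stimulated PD against PD rats gave -0.13 (SE 0.12).

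In another set of members the unlesioned rats were not alike. Rank 10 stood at 4.94, 2.95 and 2.46 CPM in control and at 4.97, 3.54 and 11.8 CPM in stimulated control rats, against 0.678 to 1.48 CPM in the 6 lesioned rats. Rank 12 stood at 6.18, 8.23 and 7.43 CPM in control and at 10.7, 7.95 and 25.9 CPM in stimulated control rats, against 2.24 to 4.14 CPM in lesioned rats. Rank 35 stood at 3.61, 3.70 and 3.28 CPM in control, at 13.5, 3.87 and 13.9 in stimulated control, at 0.276, 0.537 and 1.93 in PD and at 2.40, 1.72 and 1.16 in stimulated PD rats. In these features stimulated control rat 3, or rats 1 and 3 together, stood above all other rats. In 28 of the 100 members stimulated control rats 1 and 3 lay above the other 10 rats, as they did in 11.6% of all tested features. The rule places the highest value of every member in an unlesioned rat, which is not so for all features. The 2 shares are therefore not like for like. This pattern was noticed in the values and has no test.

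The fold of a member is given by the level at which it was counted, as a description with no test, since the rule used these values and its added 0.5 CPM asks for a larger CPM fold in low features. CPM does not correct for gene length, so these classes say how well a member was counted and not which gene is expressed more. The 24 members with a mean below 5 CPM were 1.78-fold to 7.63-fold lower in lesioned rats, with a median of 2.72-fold. The 58 members from 5 to 50 CPM were 1.38-fold to 3.68-fold lower (median 1.92), and the 18 at 50 CPM and above were 1.34-fold to 2.39-fold lower (median 1.64). Over all members the median was 1.95-fold, 47 were more than 2-fold and 7 more than 4-fold lower. Among all 14985 tested features 626 were more than 2-fold and 39 more than 4-fold lower. The rule takes the largest gaps and not the largest folds. By class, 24%, 58% and 18% of members fell in these 3 ranges, against 21.7%, 48.5% and 29.8% of all tested features. The fewest reads behind a value were 4 in a lesioned library, for a member below 5 CPM, and 1006 for the members at 50 CPM and above.

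The best counted members had small steps that still held in every rat. Rank 55, the most abundant, stood at 499, 452 and 486 CPM in control, 432, 470 and 524 in stimulated control, 325, 154 and 319 in PD and 342, 342 and 299 in stimulated PD rats. Rank 71 stood at 279, 300 and 279 CPM in control, 264, 288 and 288 in stimulated control, 198, 96.6 and 214 in PD and 206, 187 and 210 in stimulated PD rats. In both, 5 of the 6 lesioned rats lay close together and PD rat 2 lay well below them. The folds of the means were 1.61 and 1.53 with that rat and 1.47 and 1.39 without it. Among low members, rank 13 reached 0.0740 CPM in PD rat 2 and 0.567 CPM in stimulated PD rat 1, against 1.03 to 1.77 CPM in unlesioned rats.

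The list ends where the ranking is dense. Rank 100 had a gap of 0.265, with 18.6 CPM in the lowest unlesioned and 15.4 CPM in the highest lesioned rat. Rank 101, just outside, had a gap of 0.264, with 205 and 170 CPM. Ranks 98 and 99 were at 0.265 and ranks 102 and 103 at 0.264 and 0.263. In all, 1031 tested features (6.88%) lay lower in every lesioned rat, so the members are the upper end of a longer list. Another 372 features (2.48%) lay higher in every lesioned rat.

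Rats differed in how far their members lay from the unlesioned mean. The members' median log2 distance from the mean of the 6 unlesioned rats was -0.97, -1.37 and -0.78 in PD rats 1 to 3 and -0.77, -0.70 and -0.89 in stimulated PD rats 1 to 3. In unlesioned rats it lay between -0.10 and 0.24. For all tested features the same distance was -0.22 to -0.03 in lesioned and -0.04 to 0.07 in unlesioned rats. PD rat 2 held the lowest value of all 12 rats in 61 members, and stimulated control rat 3 held the highest in 74 members. The rule leaves only lesioned rats for the lowest and unlesioned rats for the highest value of a member, so these counts exceed the shares of all features in part by the choice. The rule is set by the rats nearest the step, which were stimulated PD rat 2 (the highest lesioned rat in 36 members) and control rat 3 (the lowest unlesioned rat in 36 members).

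**Figure D2:**
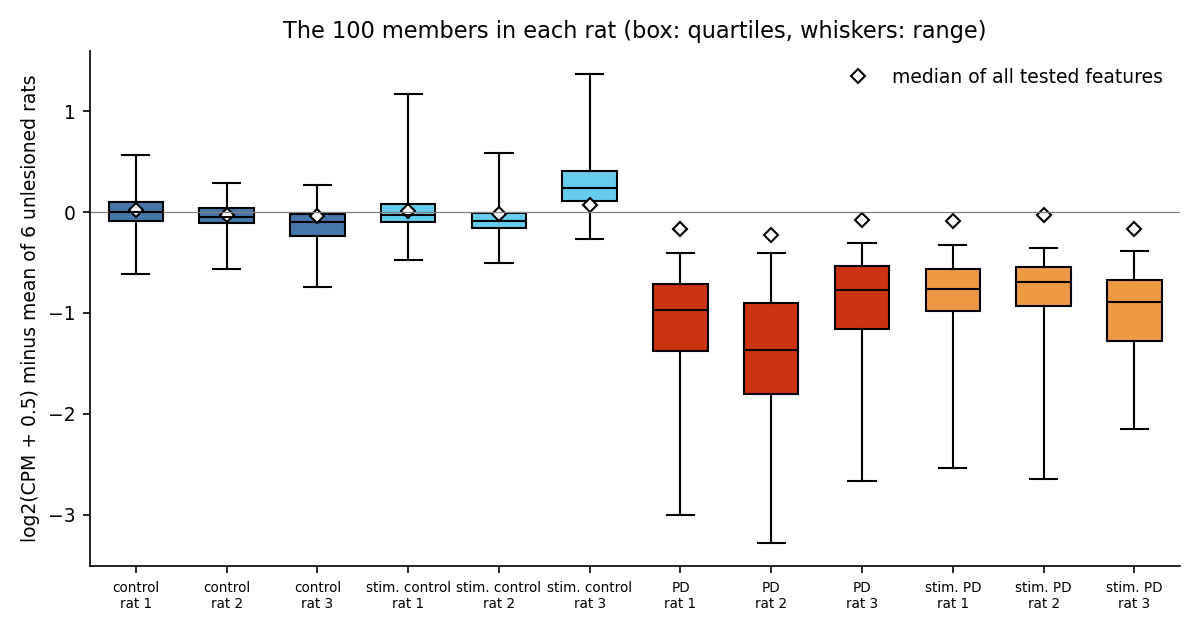
Level of the 100 members in each rat as log2(CPM + 0.5) minus the feature's mean over the 6 unlesioned rats (vertical axis); boxes are quartiles over members, whiskers the range, and diamonds the median of all tested features. The members' medians lie from -1.37 to -0.70 in lesioned rats and the diamonds from -0.22 to -0.03.

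The difference between lesioned and unlesioned rats can be read separately in the unstimulated and in the stimulated pair of groups, which share no rats. Since all 12 rats entered the choice of members, this is a description. By limma, all 100 members were called lower in lesioned rats with both pairs combined (adjusted p under 0.05), where 18.0% of all tested features were. In PD against control rats 76 members were called lower, where 4.10% of all features were, and in stimulated PD against stimulated control rats 36 were, where 1.01% were. The median log2 difference of the members was -0.97 in the first pair and -0.89 in the second, against -0.11 and -0.12 for all features. In 69 members the difference was larger in size without stimulation than with it, against 48.1% of all features (7205 of 14985). Taken with its sign, it was higher with stimulation in these 69 members and in 55.1% of all features. When PD rat 2 was left out the count of members was 53, and the share of all features in that fit is not given.

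The number of members called in each pair at an adjusted p under 0.05 moved widely when single rats were left out, while their median difference moved little. The number of all tested features called lower moved too. It is given in parentheses, and was 615 in the unstimulated and 151 in the stimulated pair with all rats. In PD against control rats the number of members was 2, 17 and 39 without control rats 1, 2 and 3 (2, 50 and 244). It was 29 without PD rat 2 (79), 49 without stimulated control rat 1 (278) and 49 without stimulated PD rat 1 (279). In the stimulated pair it was 3, 2 and 2 without control rats 1 to 3 (3, 2 and 2). Control rats are not in that pair, and without 1 of them its median stayed at -0.89. All rats in a fit share 1 estimate of the spread. Without stimulated control rats 1 to 3 the number of members was 2, 57 and 1 (2, 669 and 1). Without PD rats 1 to 3 it was 79, 100 and 63 (1227, 1542 and 425), and without any 1 stimulated PD rat 1 (1). The median log2 difference stayed between -1.11 and -0.82 in the unstimulated pair and between -0.94 and -0.77 in the stimulated pair when any 1 rat was left out. At an unadjusted limma p under 0.05, 99 and 95 members lay lower in the 2 pairs with all rats, against 19.8% and 18.4% of all features. With 1 rat left out these numbers ran from 98 to 100 and from 87 to 100.

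**Figure D3:**
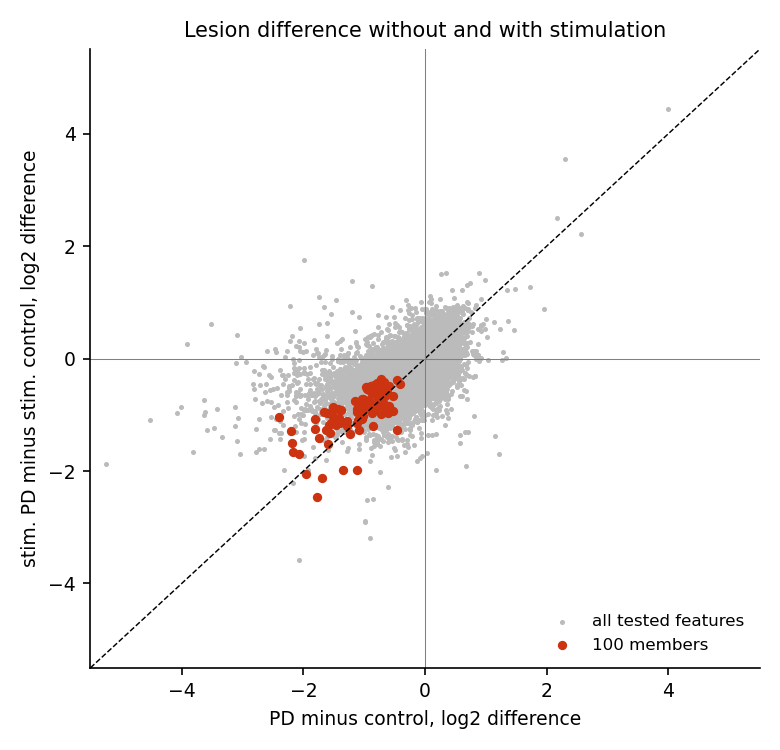
Log2 difference of PD minus control rats (horizontal) and of stimulated PD minus stimulated control rats (vertical) for all 14985 tested features in grey and the 100 members in red; the dashed line marks equal differences. Every member lies at the lower left because the rule requires it. Of the members 69 lie above the dashed line, against 55.1% of all features. For members this is the side of a larger difference without stimulation, and 53 lay there without PD rat 2.

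The rule did not use the difference between stimulated PD and PD rats, and this difference was tested. The rule did cap the highest of these 6 rats, so the choice of members was not independent of it. The members' median SD of log2 level was 0.330 in PD and 0.188 in stimulated PD rats, against 0.285 and 0.137 for all features. The part of this choice in the direction of the differences below was not tested. By limma, 0 of the 100 members differed between stimulated PD and PD rats at an adjusted p under 0.05 (smallest adjusted p = 0.153), where 0% of all tested features did. At an unadjusted p under 0.05, 12 members lay higher and 0 lower with stimulation, against 11.7% and 5.71% of all features, so the count of higher members was near the background. The 12 became 19, 4 and 40 without PD rats 1, 2 and 3, where 22.5%, 6.42% and 10.7% of all features lay higher, and 3 and 23 without stimulated PD rats 2 and 3, where 4.90% and 14.0% did. After quantile normalization the count was 5, against 8.27% of all features. edgeR called 0 members. DESeq2 placed 4 members higher, a share near its 3.66% of all features (548), and 0 lower, against 2.40% (359). The estimate was positive in 81 members with a median log2 difference of 0.25, against 59.7% of all features and a median of 0.08. These values were 69 members and 0.10 without PD rat 2, 84 members and 0.40 without PD rat 3, and 69 members and 0.14 after quantile normalization. Every PD rat lay below every stimulated PD rat in 9 members, where 9.98% of all features did so, and the opposite order occurred in 0 members, against 4.26% of all features.

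In 81 members the mean log2 level of stimulated PD rats lay above that of PD rats and below that of both unlesioned groups, an order found in 3754 of the 14985 tested features. That members lie below the unlesioned groups is set by the rule, and ranks 43, 31 and 32 are shown as examples. Rank 43 stood at 52.8, 57.1 and 47.0 CPM in control, 42.4, 58.0 and 83.1 in stimulated control, 14.1, 5.27 and 11.1 in PD and 32.8, 31.0 and 22.3 in stimulated PD rats. The 4 groups lay in 3 levels without overlap between PD, stimulated PD and unlesioned rats (stimulated PD minus PD: log2 difference 1.54, SE 0.32, limma adjusted p = 0.153). Rank 31 stood at 12.9, 9.51 and 14.0 CPM in PD and at 24.6, 26.4 and 15.9 CPM in stimulated PD rats, below the lowest unlesioned rat at 34.9 CPM (log2 difference 0.83, SE 0.24, limma adjusted p = 0.210). Rank 32 stood at 0.488, 0.333 and 0.258 CPM in PD and at 2.03, 1.99 and 0.581 CPM in stimulated PD rats, below 2.82 CPM in the lowest unlesioned rat (log2 difference 1.15, SE 0.31, limma adjusted p = 0.201). Stimulated PD rat 3 was the lowest of its group in all 3 members. None of these differences passed the test over all features. Ranks 31, 32 and 43 were each called, as higher in stimulated PD rats, by DESeq2, by limma without PD rat 1 and by limma without stimulated PD rat 3. Leaving out PD rat 1 gave 5 members called, below the background of 10.2% of all features higher and 9.43% lower. Leaving out stimulated PD rat 3 gave 4, where 2.17% of all features were called higher and 0.0133% lower. The 3 ranks were picked out after their values were seen.

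The first pair of members did not show such a step. ENSRNOG00000069829 differed between stimulated PD and PD rats by -0.14 on the log2 scale (SE 0.19, limma adjusted p = 0.674) and ENSRNOG00000070062 by 0.18 (SE 0.21, limma adjusted p = 0.621). Both differences were smaller than their standard errors.

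The same comparison was made within unlesioned rats. The rule did not use this difference, but it set a floor under the lowest of these 6 rats, so the choice of members was not independent of it. The members' median SD of log2 level was 0.115 in control and 0.197 in stimulated control rats, against 0.126 and 0.155 for all features. The part of this choice in the direction of the differences below was not tested. By limma, 0 members differed between stimulated control and control rats at an adjusted p under 0.05 (smallest adjusted p = 0.9995), where 0% of all features did, and edgeR and DESeq2 also called 0. At an unadjusted p under 0.05, 4 members were higher and 0 lower, against 1.17% and 0.614% of all features. The 4 became 2 without control rat 3, where 0.314% of all features lay higher. They became 12 and 1 without stimulated control rats 2 and 3, where 5.11% and 0.181% did. The estimate was positive in 72 members with a median of 0.08 on the log2 scale, against 59.0% and 0.03 for all features. Without stimulated control rat 3 it was positive in 46 members with a median of -0.01, so the direction of this median rested on that rat. Every stimulated control rat lay above every control rat in 5 members, where 5.49% of all features did so, and below every control rat in 0 members, against 3.40%.

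Whether stimulation acted differently in lesioned and unlesioned rats was asked with the interaction of lesion and stimulation. The rule limited the levels of both lesioned and unlesioned rats, so the choice of members was not independent of this contrast either. The part of the choice in its direction was not tested. By limma, 0 members passed (smallest adjusted p = 0.834), where 0% of all features passed, and edgeR and DESeq2 called 0 members. At an unadjusted p under 0.05, 2 members had a positive and 0 a negative interaction, against 2.90% and 1.23% of all features. Those 2 were ranks 43 and 69. The count of positive interactions was 1 without control rat 1 or stimulated control rat 1, where 1.95% and 2.18% of all features had 1. It was 4 and 7 without PD rats 1 and 3, against 10.3% and 2.61% of all features. Without stimulated PD rat 3 it was 10, against 5.34%. The median was 0.17 on the log2 scale, against 0.04 over all features, with a median standard error of 0.30 for a single member. With 1 rat left out the median ran from 0.02, without PD rat 2, to 0.28, without stimulated control rat 3. It was 0.27 without PD rat 3, 0.11 without control rat 1 or stimulated control rat 1, 0.10 without stimulated PD rat 2 and 0.08 after quantile normalization.

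**Figure D4:**
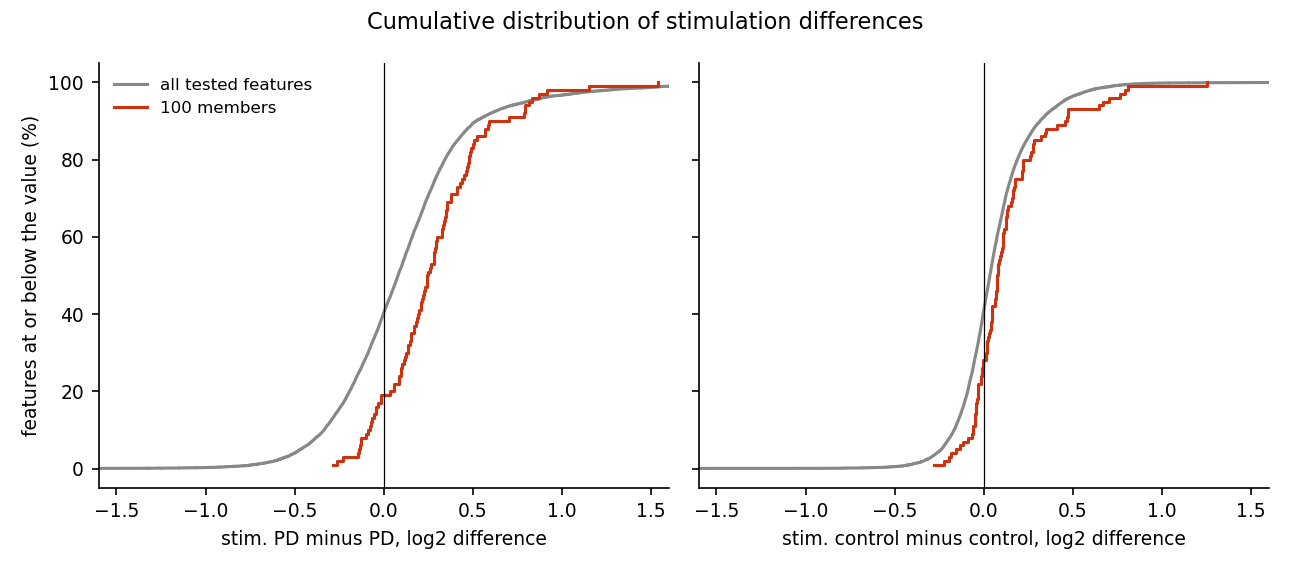
Share of features (vertical axis, percent) with a log2 difference at or below the value on the horizontal axis, for stimulated PD minus PD rats (left) and stimulated control minus control rats (right); red is the 100 members and grey all tested features. The red curve crosses 0 at 19% on the left and 28% on the right; 158 and 11 features, none of them members, lie beyond the axis limits of 1.6.

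The members kept their direction under other scalings, but the longer list around them did not. The members were chosen for the largest gaps on the deposited scale, so they had the most room to keep a positive gap after rescaling. That they kept it is therefore no support for them. With TMM factors, which set each library's scale from features of middling change, all 100 members still lay lower in every lesioned rat, and 81 of them were again among the 100 with the largest gap. With median-of-ratios factors the numbers were 100 and 77, and with quantile normalization, which puts all libraries on 1 distribution, 89 and 66. The first 10 members were found again under each of these scalings. The median log2 difference between lesioned and unlesioned rats was -0.92 as deposited and -0.79, -0.79 and -0.72 under these scalings, while the median of all features moved from -0.12 to 0.01, 0.01 and 0.03. Subtracting the median of all features from that of the members gave -0.80 on the deposited scale, and -0.80, -0.80 and -0.76 under the 3 rescalings. TMM and median-of-ratios factors divide a library by 1 number, which shifts members and all features nearly alike. Under these factors the value could therefore hardly move, and it is no support for the members.

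Over all tested features, those lower in every lesioned rat numbered 1031 as deposited, 452 with TMM, 525 with median-of-ratios factors and 537 when quantile normalized. Those higher in every lesioned rat numbered 372, 1174, 994 and 953. Which direction held more features therefore turned with the scaling. The 100 members, chosen for the largest gaps, kept their direction with the 11 exceptions after quantile normalization that no longer separated the rats completely.

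**Figure D5:**
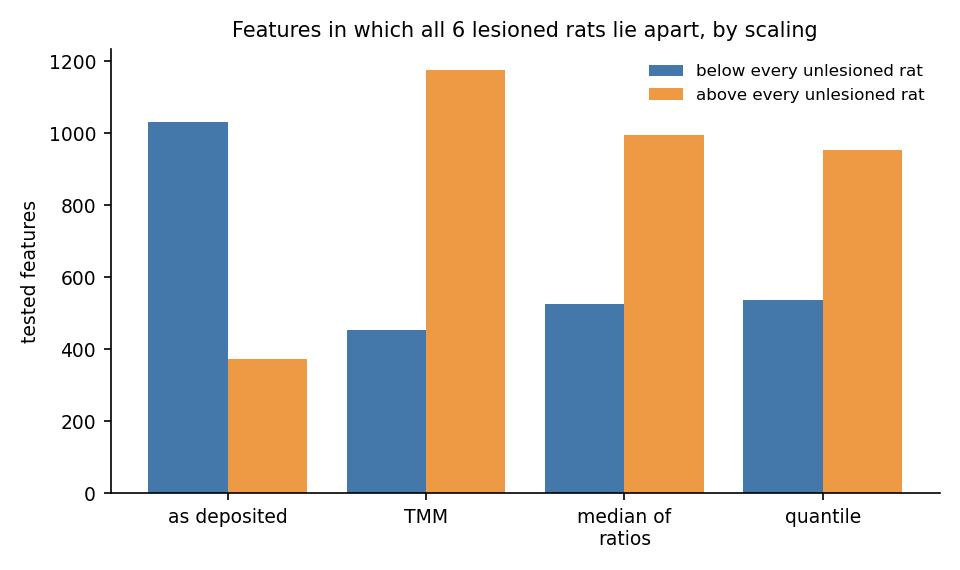
Number of tested features (vertical axis) in which all 6 lesioned rats lie below (blue) or above (orange) all 6 unlesioned rats, as deposited and under 3 rescalings. As deposited 1031 lie below and 372 above, and with TMM factors 452 lie below and 1174 above.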

How the data were processed

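Messenger RNA of 12 motor cortex samples was made into stranded libraries, per the labels' protocols. The submitters' processing notes name the tools Trim Galore, STAR and featureCounts (no versions) and mRatBN7.2 as the assembly; annotation release and strand setting: not given in the sources used here. CPM were calculated by the authors and deposited as 1 table, with no value at 0. All 12 columns were matched to samples by their short descriptions. Titles number the rats of a group, so libraries are taken as separate animals.

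Gaps and fits used log2(CPM + 0.5) for features averaging 0.5 CPM or more. limma 3.58.1 (R 4.3.3) fitted 1 coefficient per group over 12 libraries with a trended variance and 8 residual degrees of freedom; p-values are two-sided and Benjamini-Hochberg adjusted over all tested features. A fold change on this scale understates that of low features. The fold of a member is the ratio of mean CPM. Dividing CPM by its smallest step gave whole reads for 100% of values (tolerance 0.001 read). On these reads edgeR 4.0.16 called 1640 features lower and 1625 higher in lesioned rats, and DESeq2 1.42.0 called 2152 and 2214, against 2703 and 748 by limma. These fits also differ in scaling: edgeR used TMM factors, DESeq2 its own size factors, and limma the CPM as deposited. With TMM factors limma called 1609 lower and 1887 higher. Scripts were tested on simulated data.

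The members and gene lists were chosen with earlier results of these data known. The naming rule asked for members with a symbol; none has one, so only the 2 with the largest gap are named by identifier, and other members are shown by rank, some chosen after their values were seen.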

Additional observations from a re-analysis of the deposited data

How the results depend on the processing

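Alternatives were pseudocounts of 0.1 and 2 CPM, no level filter, TMM, median-of-ratios and quantile scaling, edgeR, DESeq2, leaving out each rat, a replicate block and fitting only the 2 compared groups. The count of members called between stimulated PD and PD rats was 0 in the reported fit, 4 by DESeq2 (6.05% of all features called), and 0 to 5 with 1 rat left out, the 5 without PD rat 1 (19.6% of all features called). Between stimulated control and control rats and for the interaction it was 0 throughout, and for all lesioned against unlesioned rats 97 to 100. For the next counts, parentheses give the number of all tested features called lower. The 76 members (615) called lower in PD against control rats became 42 (219) after quantile normalization and 49 (603) with only the 2 compared groups fitted. With 1 rat left out they ran from 2 to 84 (2 to 895). The 36 (151) called lower in stimulated PD against stimulated control rats became 14 (25) without the filter and 5 (8) with median-of-ratios factors. They became 5 (7) by edgeR, 84 (979) by DESeq2 and 95 (1400) with only the 2 groups fitted, and ran from 1 to 100 (1 to 1542) with 1 rat left out. The cause of these moves was not tested. The rule found 66 of the 100 members again after quantile normalization and 44 to 98 with 1 rat left out, the fewest without stimulated PD rat 2 (44), PD rat 3 (49) and control rat 3 (61).

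Lower features were 78.3% of those called between lesioned and unlesioned rats as deposited, 46.0% with TMM, 50.5% with median-of-ratios factors, 44.8% when quantile normalized, 50.2% with edgeR and 49.3% with DESeq2. The members' median for stimulated control against control rats ran from -0.012, without stimulated control rat 3, to 0.13 with 1 rat left out. For ENSRNOG00000069829, differences near 0 changed sign with 1 rat left out (log2): stimulated PD against PD ran from -0.24 to 0.0057 and the interaction from -0.22 to 0.046, both highest without PD rat 2. Stimulated against unstimulated controls ran from -0.12 to 0.081, with 0.021 without control rat 3 and the highest without rat 3 of the stimulated controls. ENSRNOG00000070062 lost its call between stimulated PD and stimulated control rats (limma adjusted p = 0.0196) without stimulated control rat 3 (0.121) and without stimulated PD rat 1, 2 or 3 (0.0632, 0.0647 and 0.0764).

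The rat number in the titles was tried as a replicate block. The deviations of same-numbered rats of different groups correlated with r from -0.46 to 0.36 over 18 pairs. For rats with different numbers r ran from -0.37 to 0.50 over 36 pairs, and 2 of 12 libraries correlated best with one of their own number. Whether the number marks anything the rats share was not tested. With the block, 48 members were called lower in PD against control rats, where 271 of all tested features were. In stimulated PD against stimulated control rats 1 member was, which was the only 1 of all features. ENSRNOG00000070062 lost the latter call (limma adjusted p = 0.0764). Members below 5 CPM rest on as few as 4 reads in a lesioned library, so their folds are the least precise.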
